A study of Homo sapiens with 6 samples.

Results

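Imprinted genes are expressed from the allele inherited from 1 parent, and 10 of them, MEG3, H19, PEG3, PEG10, DLK1, NNAT, MEST, SNRPN, CDKN1C and PLAGL1, were followed in astrocytes made from human embryonic stem cells. They were chosen by name as known imprinted genes that are often watched in stem cell derivatives, and they are 10 of 27439 genes with reads. A low-count filter kept 9 of the 10 (and 15984 genes in all), and the remaining member, PEG3, had 1 read in the whole series. The comparison set 3 libraries of H1-derived astrocytes with a ventral midbrain character (numbered 2, 3 and 4) against 3 libraries with the same numbers of H1-derived astrocytes with the forebrain character that the labels call control. The labels name the astrocyte as source and the stem cell as cell type. H1 is an established human embryonic stem cell line, so every library comes from the same single line. The labels name no transgene, added factor or culture time. RNA was read with 3' end libraries of polyadenylated RNA, which count the ends of transcripts and sum both alleles. Allele of origin and DNA methylation were not measured.

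An imprint is a DNA methylation mark set in the egg or sperm and kept on that parental copy through development. Imprinted genes lie in clusters that share a control region, in which long noncoding RNAs such as H19 and MEG3 are read from the maternal copy, and neighbouring protein genes such as IGF2 and DLK1 from the paternal copy. Many of them act on growth, on the choice between division and differentiation, and in brain development. In cultured pluripotent cells some imprinted genes are known to gain or lose expression for good, which is why they are followed in derivatives.

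The libraries held 11617935 to 15391082 estimated reads. Correlations of log2 CPM (a gene's reads scaled to a common library size, with TMM factors) ran from 0.954 to 0.968 inside a group and from 0.919 to 0.958 across groups. Of 10 astrocyte markers all had reads, and their summed level was 5311 to 6149 CPM in ventral midbrain and 4703 to 5564 CPM in control libraries. VIM made up most of that sum, at 3947 to 5226 CPM in ventral midbrain and 3264 to 3999 CPM in control libraries. GFAP was at 320, 175 and 618 CPM in ventral midbrain and at 267, 360 and 459 CPM in control replicates 2, 3 and 4. Single astrocyte markers did differ. AQP4 was at 19.4 to 50.4 CPM in ventral midbrain and 1.71 to 6.20 CPM in control. The edgeR test called AQP4 and SLC1A3 higher in ventral midbrain (adjusted p = 0.048 and 0.034) and 0 lower, beside 1.06% and 1.09% of all genes. Of the 10 astrocyte markers, fold changes were positive for 5 and negative for 5. With the replicate number as a block, AQP4 and SLC1A3 passed again as higher, beside 3.63% of all genes. SOX9, GJA1 and CD44 passed as lower in that fit (edgeR adjusted p = 0.030, 0.0079 and 0.0045), beside 4.5% of all genes. Mesenchymal and fibroblast markers summed to 559 to 703 CPM in ventral midbrain and 1004 to 1622 CPM in control libraries, and neuron markers to 715 to 1188 CPM in ventral midbrain and 1267 to 2012 CPM in control libraries. The gap in the neuron sum rests on STMN2, without which it was 491 to 618 CPM in ventral midbrain and 556 to 627 CPM in control. Without COL1A1 the mesenchymal sums overlapped too, at 324 to 419 CPM in ventral midbrain and 333 to 639 CPM in control. Cycling markers set the libraries numbered 3 apart, with 3546 CPM in ventral midbrain and 2510 CPM in control replicate 3, against 957 to 1054 CPM and 716 to 740 CPM in the other ventral midbrain and control libraries. POU5F1, which marks pluripotent cells, had no read in any ventral midbrain library and at most 0.303 CPM in a control library. Of the same list, DPPA4 was at 2.99 to 7.06 CPM in ventral midbrain and 5.56 to 6.85 CPM in control. NANOG reached 1.45 CPM in a ventral midbrain library and 1.71 CPM in a control library. MYOG, TTR and SOX10, of the muscle, choroid plexus and oligodendrocyte lineage lists, had no read. Other markers of those lists did have reads. DES, a muscle filament gene, was at 7.52 to 16.8 CPM in ventral midbrain and 0.681 to 5.27 CPM in control. MYH3 and TNNT1, the other muscle markers tested, went the other way (log2 fold changes -0.85 and -2.23), at 1.68 CPM or less in every library. PDGFRA, of the oligodendrocyte lineage list, fell to 15.1 to 23.0 CPM in ventral midbrain, against 53.1 to 82.2 CPM in control (edgeR adjusted p = 0.0040). MBP, a myelin gene, was at 17.8 to 32.8 CPM in ventral midbrain and 22.9 to 29.4 CPM in control.

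Promoter sequences are shown for 4 members because the first exons of SNRPN, of the shorter MEST form and of PLAGL1, and the start of MEG3, lie in regions known to be methylated on 1 parental copy. Each window runs from 250 bases before to 50 bases after a RefSeq start (GRCh38.p14) nearest the start of the transcript that took most reads, and both starts are given for MEST. Capitals mark TGCCGC or its reverse complement GCGGCA. This hexamer, in its methylated form, is recognised by ZFP57, a zinc finger protein that protects imprints. RefSeq windows were found for 5 of the 10 members, and that of H19 is not shown because no transcript with reads starts near it.
MEG3, chr14:100825882-100826181 (plus strand): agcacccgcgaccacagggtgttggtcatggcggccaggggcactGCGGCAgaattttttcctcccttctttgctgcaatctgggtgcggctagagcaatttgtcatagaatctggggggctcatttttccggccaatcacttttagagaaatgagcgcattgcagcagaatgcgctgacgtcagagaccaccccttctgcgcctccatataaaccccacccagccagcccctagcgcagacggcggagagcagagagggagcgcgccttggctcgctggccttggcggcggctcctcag
SNRPN, chr15:24954737-24955036 (plus strand): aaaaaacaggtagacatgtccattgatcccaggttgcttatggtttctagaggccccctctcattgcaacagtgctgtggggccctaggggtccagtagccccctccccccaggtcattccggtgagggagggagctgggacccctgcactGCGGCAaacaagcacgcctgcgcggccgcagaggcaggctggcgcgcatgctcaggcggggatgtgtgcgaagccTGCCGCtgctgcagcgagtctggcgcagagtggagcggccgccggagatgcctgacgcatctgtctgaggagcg
MEST shorter form, chr7:130491808-130492107 (plus strand): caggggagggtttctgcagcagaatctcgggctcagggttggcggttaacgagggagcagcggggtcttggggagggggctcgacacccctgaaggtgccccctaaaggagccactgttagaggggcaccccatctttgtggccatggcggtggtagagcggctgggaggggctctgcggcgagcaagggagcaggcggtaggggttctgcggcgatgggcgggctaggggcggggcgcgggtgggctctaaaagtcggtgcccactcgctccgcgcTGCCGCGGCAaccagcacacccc
MEST longer form, chr7:130486097-130486396 (plus strand): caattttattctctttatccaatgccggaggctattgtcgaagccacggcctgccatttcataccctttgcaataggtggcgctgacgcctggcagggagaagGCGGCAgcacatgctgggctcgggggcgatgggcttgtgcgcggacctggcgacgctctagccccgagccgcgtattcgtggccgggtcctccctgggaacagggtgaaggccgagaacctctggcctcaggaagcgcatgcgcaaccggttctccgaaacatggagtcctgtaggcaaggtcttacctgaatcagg
PLAGL1, chr6:144008210-144008509 (minus strand): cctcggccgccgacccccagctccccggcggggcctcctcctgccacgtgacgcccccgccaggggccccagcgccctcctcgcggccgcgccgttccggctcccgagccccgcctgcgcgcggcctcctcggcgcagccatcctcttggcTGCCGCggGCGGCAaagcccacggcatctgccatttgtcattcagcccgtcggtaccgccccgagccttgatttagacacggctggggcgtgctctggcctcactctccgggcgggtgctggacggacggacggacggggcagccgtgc
The windows of SNRPN, of the shorter MEST form and of PLAGL1 each held 2 matches on the 2 strands together, and in MEST the 2 overlap. The window of MEG3 held 1 match, as did that of the longer MEST form. Of 35116 promoter windows of the same length, 16.7% held a match on either strand. The 5 windows printed held 18, 18, 22, 22 and 39 CG dinucleotides in the order shown, against a median of 14 over all windows. A match is a description of letters and does not show binding or methylation.

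No member passed edgeR's quasi-likelihood test of ventral midbrain against control at a Benjamini-Hochberg adjusted p under 0.05, a level reached by 2.15% of all genes (1.06% higher and 1.09% lower in ventral midbrain). PEG10, NNAT, CDKN1C and MEG3 had an unadjusted p under 0.05, which makes 4 of 9 members beside 12% of all genes. DESeq2 called 2 members, PEG10 higher and NNAT lower, beside 4.69% of all genes (2.13% higher and 2.57% lower), and limma voom called 0 beside 1.64% (0.795% higher and 0.845% lower). The groups share the numbers 2, 3 and 4, and same-numbered libraries deviated together. When the number entered as a block, 5 of the 9 tested members passed, PEG10 and H19 higher and NNAT, MEST and CDKN1C lower in ventral midbrain. All genes passed that fit at 8.13% (3.63% higher and 4.5% lower). Of the 9, 8 moved in the same direction in all 3 numbered pairs, against 41.5% of all genes, and SNRPN was the exception. For 4 members (PEG10 higher, MEG3, NNAT and CDKN1C lower) the ventral midbrain range and the control range were separate, against 17.9% of all genes (9.15% higher and 8.77% lower). The median log2 fold change of the 9 was -0.19, and 0.01 over all genes, while the median size regardless of sign was 0.52 for the 9 and 0.25 over all genes. These shares describe 9 genes picked by name and carry no test of their own.

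**Figure D1:**
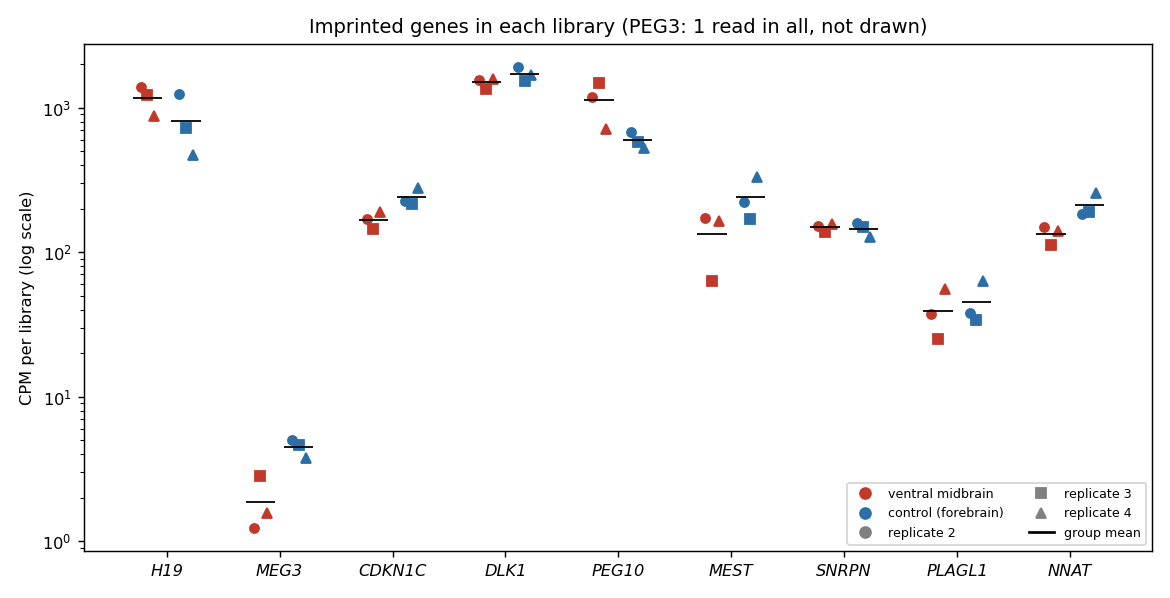
Level of each imprinted gene in CPM (log axis) in every library, with ventral midbrain left of control, symbols for the replicate number and bars for group means. DLK1, H19 and PEG10 lie at or above 473 CPM in every library, MEG3 lies at 1.24 to 5.05 CPM, and the groups of PEG10, NNAT, CDKN1C and MEG3 do not overlap.

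Levels between genes were compared per length, as TPM, although 3' end reads do not grow with transcript length. H19 averaged 365 TPM over the 6 libraries, PEG10 239 TPM, NNAT 178 TPM and DLK1 138 TPM. SNRPN followed at 74.2 TPM, MEST at 39.1 TPM, CDKN1C at 26.9 TPM, PLAGL1 at 6.0 TPM and MEG3 at 0.507 TPM. Over libraries, neighbours among the first 4 overlapped, as did SNRPN with MEST and MEST with CDKN1C. The steps from DLK1 to SNRPN, from CDKN1C to PLAGL1 and from PLAGL1 to MEG3 were larger than the spread over libraries. On the scale of CPM, which carries no length, DLK1 stood first in 5 of 6 libraries at 1344 to 1907 CPM, the exception being ventral midbrain replicate 3, where PEG10 was at 1486 CPM. In CPM the ranges of CDKN1C (145 to 278), NNAT (112 to 258), MEST (63.1 to 332) and SNRPN (126 to 159) overlapped over libraries.

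The noncoding RNAs expressed from the maternal copy were at opposite ends of the range. H19 (chromosome 11, 1995176 to 2001470, minus strand, GRCh38), an abundant fetal long noncoding RNA, was at 1380, 1228 and 870 CPM in ventral midbrain and at 1239, 720 and 473 CPM in control replicates 2, 3 and 4. The groups overlap, since control replicate 2 stood above ventral midbrain replicates 3 and 4, but ventral midbrain was higher in each numbered pair, by 0.16, 0.77 and 0.88 on the log2 scale. The means ± SD were 1159 ± 262 and 810 ± 391 CPM in ventral midbrain and control (n = 3 each). Its log2 fold change was 0.52 ± 0.34 (SE; edgeR adjusted p = 0.65), and 0.60 when blocked by number (edgeR adjusted p = 0.015). Leaving out 1 library moved the fold change to between 0.24 and 0.96, the lowest without control replicate 4 and the highest without control replicate 2, with adjusted p from 0.15 to 0.93.

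H19 reads were assigned to different transcripts by replicate number, not by group. Salmon gave 96.8% to 97.9% of them to the transcript H19-210 in the libraries numbered 2 and 4. In those numbered 3 it gave 90.9% (ventral midbrain) and 97.7% (control) to H19-204, which had no read in the other 4 libraries. Both transcripts end at the same base, and the last 60 bases, shown because 3' end reads gather there, are the same letters in GENCODE. Capitals mark the polyadenylation signal AATAAA.
H19-210: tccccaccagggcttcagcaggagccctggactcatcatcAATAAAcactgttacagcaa
H19-204: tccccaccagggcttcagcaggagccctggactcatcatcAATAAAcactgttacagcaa
The sum over transcripts, which the main test used, does not depend on this division. H19-210 has 798 and H19-204 has 1090 bases, but the mean effective length of H19 was 996 and 748 bases in ventral midbrain and control replicate 3, against 815 to 1013 bases in the other 4 libraries, so it did not follow the annotated lengths. In the authors' deposited normalized values H19 was at 19130, 14666 and 12539 in ventral midbrain and at 15814, 11502 and 5622 in control replicates 2, 3 and 4, so ventral midbrain was higher in each pair there too.

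MEG3 (chromosome 14, 100779410 to 100861031, plus strand), a long noncoding RNA of the DLK1 cluster, was barely detected. It had 19, 36 and 22 reads in ventral midbrain and 69, 53.9 and 50 in control replicates 2, 3 and 4, or 1.24, 2.82 and 1.58 CPM and 5.05, 4.61 and 3.78 CPM. Every ventral midbrain library lay below every control library. The log2 fold change was -1.26 ± 0.46 (SE; edgeR adjusted p = 0.27 unblocked and 0.11 blocked by number). The difference depends on how reads are corrected for length: with a gene-length offset it was 0.20 (edgeR adjusted p = 0.97), and in the deposited normalized values, tested with limma, -0.02 (adjusted p = 0.995). Of 47 annotated MEG3 transcripts 6 had any read. MEG3-220, the form with most reads, took 36.8%, 27.7% and 68.2% of them in ventral midbrain and 59.4%, 70.3% and 62.0% in control replicates 2, 3 and 4. MEG3-225, a short form, took 63.2% in ventral midbrain replicate 2, which were 12 reads, and none in any control library. Shares of so few reads carry a large counting error.

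**Figure D2:**
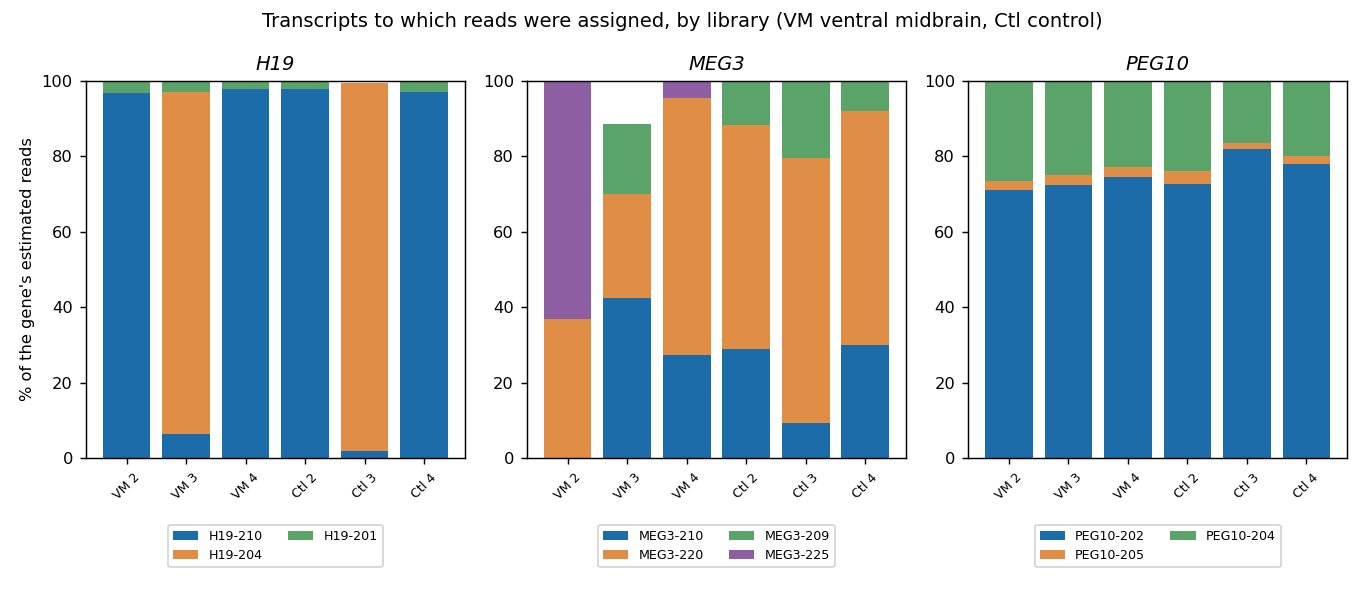
Share of each gene's estimated reads (percent) that was assigned to its transcripts with at least 3 reads, for H19, MEG3 and PEG10. Ventral midbrain (VM) libraries are left of control (Ctl) libraries. H19-202 and H19-203, at 0.46% of H19 reads or less in every library, are not drawn. H19-204 replaces H19-210 in both libraries numbered 3, MEG3 varies from library to library, and PEG10-202 holds 71.1% to 81.9% of PEG10 reads.

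DLK1 (chromosome 14, 100725705 to 100738224, plus strand), a membrane protein with EGF repeats that restrains differentiation and is read from the paternal copy, was the member with most reads. It was at 1543, 1344 and 1585 CPM in ventral midbrain and at 1907, 1521 and 1681 CPM in control replicates 2, 3 and 4. The groups overlap, and its log2 fold change was -0.19 ± 0.16 (SE; edgeR adjusted p = 0.74). DLK1 had 1250, 476 and 1006 times the CPM of MEG3 in ventral midbrain replicates 2, 3 and 4, and 378, 330 and 444.5 times in control. The 2 sets do not overlap in CPM, but in TPM they do, at 136, 239 and 842 times in ventral midbrain and 338, 233 and 487 times in control. Other genes of the cluster differed in level. DIO3, which breaks down thyroid hormone, was at 571, 356 and 846 CPM in ventral midbrain and at 614, 478 and 596 CPM in control (edgeR adjusted p = 0.97). RTL1, derived from a retrotransposon, was at 0.715 to 2.27 CPM in ventral midbrain and 0.151 to 0.805 CPM in control (edgeR adjusted p = 0.61). Reads of MEG8 and MEG9 were too few to be tested, and for MEG8 the deposited table held 3.78 times as much signal as the present sum.

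PEG10 (chromosome 7, 94656325 to 94669695, plus strand), a gene of retrotransposon origin with a viral type of reading-frame shift, had the highest fold change of the members. It was at 1187, 1486 and 709 CPM in ventral midbrain and at 682, 574 and 525 CPM in control replicates 2, 3 and 4. All ventral midbrain libraries lay above all control libraries, though ventral midbrain replicate 4 exceeded control replicate 2 by little. It averaged 1127 ± 392.1 CPM in ventral midbrain and 594 ± 80.4 CPM in control (SD, n = 3 each). The log2 fold change was 0.92 ± 0.25 (SE; edgeR adjusted p = 0.11), 0.87 when blocked by number (edgeR adjusted p = 0.0047) and 0.91 with DESeq2 (adjusted p = 0.0095). Without ventral midbrain replicate 4 the edgeR adjusted p was 0.031 at a fold change of 1.17, and leaving out each of the other 5 libraries gave 0.18 to 0.38. With a gene-length offset it was 1.24 (edgeR adjusted p = 0.17), so its direction held under length correction.

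The neighbours of PEG10 on 7q21 leaned the same way, a pattern picked out after the values were seen. All 6 tested genes of this cluster had a positive fold change, and in 4 of them ventral midbrain lay wholly above control, as in 9.15% of all genes. SGCE, a sarcoglycan gene that starts next to PEG10 on the other strand and is likewise read from the paternal copy, was at 35.0, 43.8 and 42.3 CPM in ventral midbrain and at 29.7, 28.3 and 34.1 CPM in control (log2 fold change 0.39 ± 0.17 SE; edgeR adjusted p = 0.39). CASD1, a sialic acid acetyltransferase gene, was at 18.5 to 21.2 CPM in ventral midbrain and 12.6 to 15.49 CPM in control (edgeR adjusted p = 0.29). PON2, a lactonase gene, was at 449, 556 and 423 CPM in ventral midbrain and at 314, 293 and 248 CPM in control, so its log2 fold change came to 0.74 ± 0.17 (SE; edgeR adjusted p = 0.053 unblocked and 0.0012 blocked by number). TFPI2 was at 251 to 758 CPM in ventral midbrain and 160 to 440 CPM in control, and PPP1R9A at 40.9 to 45.2 CPM and 27.0 to 54.1 CPM in the same order, with overlapping groups. None of these 6 genes passed the unblocked edgeR test (2.15% of all genes did), and 4 had an unadjusted p under 0.05 (12% of all genes). DESeq2 called PEG10 and PON2 (4.69% of all genes), and voom called 0 (1.64%). The ratio of PEG10 to SGCE in log2 CPM was 5.08, 5.09 and 4.07 in ventral midbrain and 4.52, 4.34 and 3.94 in control replicates 2, 3 and 4, overlapping between groups.

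**Figure D3:**
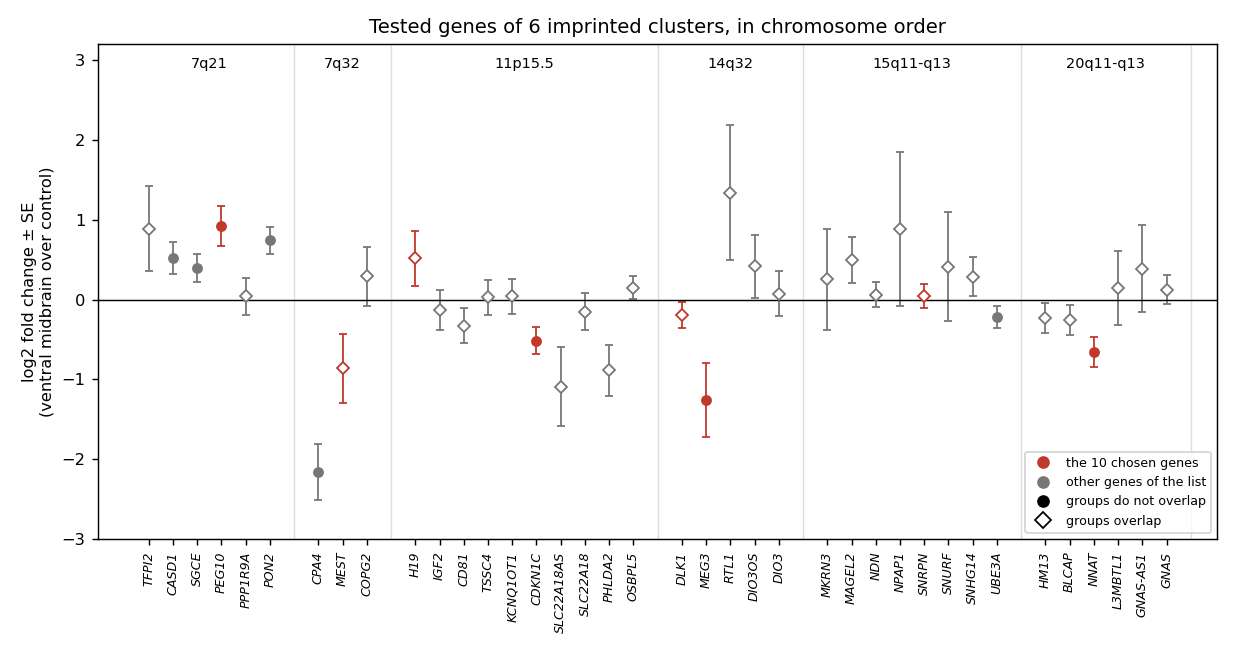
Log2 fold change of ventral midbrain over control (± SE from edgeR, 3 libraries a group) for the tested genes of 6 imprinted clusters in chromosome order. The 6 genes of 7q21 lie above 0, CPA4 and MEST lie at -2.16 and -0.86 on 7q32, and SNRPN, NDN and UBE3A on 15q11-q13 lie at 0.04, 0.06 and -0.22.

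NNAT (chromosome 20, 37521206 to 37523693, plus strand), neuronatin, a small membrane protein of the endoplasmic reticulum in developing brain, lay lower in every ventral midbrain library. It was at 148, 112 and 139 CPM in ventral midbrain and at 185, 188 and 258 CPM in control replicates 2, 3 and 4, with no overlap. It averaged 133 ± 18.9 CPM in ventral midbrain and 210.2 ± 41.4 CPM in control (SD, n = 3 each). The log2 fold change was -0.66 ± 0.18 (SE; edgeR adjusted p = 0.11), -0.65 when blocked by number (edgeR adjusted p = 0.0064) and -0.67 with DESeq2 (adjusted p = 0.029). NNAT lies in an intron of BLCAP, which is not imprinted in all tissues. BLCAP was at 33.8, 24.5 and 30.6 CPM in ventral midbrain and at 33.2, 32.4 and 41.1 CPM in control (edgeR adjusted p = 0.68). The ratio of NNAT to BLCAP in log2 CPM was the steadiest of the pairs examined, at 2.13, 2.19 and 2.19 in ventral midbrain and 2.48, 2.54 and 2.65 in control. Neuron markers were mixed. STMN2 was at 570, 150 and 626 CPM in ventral midbrain and at 1087, 639 and 1456 CPM in control replicates 2, 3 and 4, and DCX, INA, NEFL and NEFM had negative fold changes too. TUBB3, at 203 to 255 CPM in ventral midbrain and 214 to 233 CPM in control, MAP2, SNAP25 and SYT1 had log2 fold changes of 0.03 to 0.26. Of 9 neuron markers tested, 0 passed the unblocked edgeR test (2.15% of all genes did) and 4 had an unadjusted p under 0.05 (12% of all genes). DESeq2 called 4 (4.69%) and voom 0 (1.64%), while 5 neuron markers passed as lower when blocked by number (4.5%). Their part in the NNAT difference was not tested. In these bulk samples, fewer cells of a type and less RNA per cell cannot be told apart.

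MEST (chromosome 7, 130486171 to 130506465, plus strand), an enzyme-like protein first found in mesoderm, was at 172, 63.1 and 163 CPM in ventral midbrain and at 224, 169 and 332 CPM in control replicates 2, 3 and 4. The groups overlap slightly, since ventral midbrain replicate 2 stood just above control replicate 3, and replicate 3 was the lowest of each group. Within the numbered pairs ventral midbrain was lower, with differences of -0.38, -1.42 and -1.03 on the log2 scale at numbers 2, 3 and 4. Its mean was 133 ± 60.5 CPM in ventral midbrain and 242 ± 83.2 CPM in control (SD, n = 3 each). The log2 fold change was -0.86 ± 0.43 (SE; edgeR adjusted p = 0.52), and -0.94 when blocked by number (edgeR adjusted p = 0.0067). The transcript MEST-208, which starts at the upstream promoter printed above, took 93.8% to 98.1% of the reads, but MEST-201, from the imprinted promoter, shares nearly the same end. Reads of 3' ends therefore cannot tell these promoters apart. The mesenchymal markers summed to less in ventral midbrain as well. Without COL1A1 the sums overlapped, at 324 to 419 CPM in ventral midbrain and 333 to 639 CPM in control. Of 10 tested, 3 were called lower by edgeR (COL1A1, COL3A1 and PRRX1), beside 1.09% of all genes. Fold changes were negative for 6 and positive for 4. DESeq2 called 6 (4.69% of all genes) and voom 2 (1.64%). Blocked by number, 4 passed as lower and 1 as higher (4.5% and 3.63% of all genes). COL1A1 was at 235 to 311 CPM in ventral midbrain and 671 to 1077 CPM in control. In the other direction POSTN was at 91.6 to 147 CPM in ventral midbrain and 52.4 to 80.0 CPM in control (edgeR adjusted p = 0.060 unblocked and 0.0003 when blocked). LUM and DCN, at 3.69 CPM or less in every library, were higher in every ventral midbrain library than in any control library. The part of these markers in the MEST difference was not tested. On the same arm CPA4, a carboxypeptidase gene, fell to 5.59, 3.92 and 5.51 CPM in ventral midbrain, against 31.2, 12.1 and 23.8 CPM in control (log2 fold change -2.16 ± 0.35 SE; edgeR adjusted p = 0.011). That call was lost without ventral midbrain replicate 2, ventral midbrain replicate 4 or control replicate 4, which are 3 of 6 fits with 1 library left out (highest edgeR adjusted p = 0.057). COPG2, which overlaps the end of MEST, was at 10.6 to 22.3 CPM and 9.497 to 20.99 CPM in ventral midbrain and control (edgeR adjusted p = 0.86).

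CDKN1C (chromosome 11, 2883213 to 2885773, minus strand) encodes an inhibitor of cyclin-dependent kinases that holds cells out of the cycle and is read from the maternal copy. It was at 168, 145 and 189 CPM in ventral midbrain and at 224, 217 and 278 CPM in control replicates 2, 3 and 4, and every ventral midbrain library lay below every control library. Its mean was 168 ± 21.9 CPM in ventral midbrain and 239 ± 33.4 CPM in control (SD, n = 3 each). The log2 fold change was -0.52 ± 0.17 (SE; edgeR adjusted p = 0.19), and -0.51 when blocked by number (edgeR adjusted p = 0.011), with pair differences of -0.41, -0.58 and -0.55. Summed cycling markers stood above the numbered control partner in every ventral midbrain library, at 1054 and 716 CPM, 3546 and 2510 CPM, and 957 and 740 CPM for numbers 2, 3 and 4 with ventral midbrain first. Of 8 cycling markers 0 passed the unblocked edgeR fit (2.15% of all genes did), with 0 below 0.05 before adjustment (12%). DESeq2 and voom called 0 as well (4.69% and 1.64%), while 3 cycling markers passed as higher when blocked (3.63%). Their part in the CDKN1C difference was not tested, and without both libraries numbered 3 its log2 fold change was -0.49 (edgeR adjusted p = 0.32). PHLDA2, a growth-limiting gene of the same cluster, was at 11.6, 12.6 and 9.02 CPM in ventral midbrain and at 22.5, 11.1 and 27.8 CPM in control (log2 fold change -0.88 ± 0.32 SE; edgeR adjusted p = 0.26). SLC22A18AS was at 2.28, 1.25 and 2.86 CPM in ventral midbrain and at 5.56, 2.57 and 5.52 CPM in control (edgeR adjusted p = 0.41). Both had overlapping groups and an unadjusted p under 0.05. In the same region KCNQ1OT1, a noncoding RNA of the paternal copy, was at 131, 201 and 174 CPM in ventral midbrain and at 154, 210 and 128 CPM in control (edgeR adjusted p = 0.975). IGF2, the growth factor paired with H19, was at 27.5, 48.8 and 30.3 CPM in ventral midbrain and at 42.5, 44.5 and 29.4 CPM in control (edgeR adjusted p = 0.92). The ratio of H19 to IGF2 in log2 CPM was 5.65, 4.65 and 4.84 in ventral midbrain and 4.87, 4.01 and 4.01 in control replicates 2, 3 and 4, with the ventral midbrain library above its numbered partner every time and overlap between groups.

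**Figure D4:**
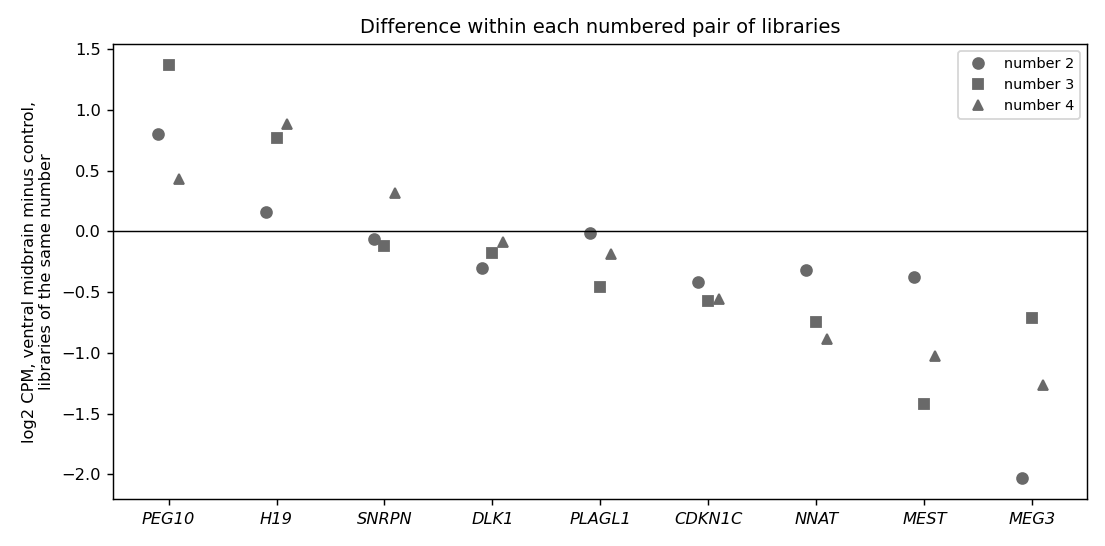
Difference in log2 CPM, ventral midbrain minus control, between libraries of the same number, for each imprinted gene with tests. PEG10 and H19 lie above 0 at all 3 numbers, SNRPN lies on both sides, and the other 6 lie below 0 at all 3.

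SNRPN and PLAGL1 differed by less than the spread between libraries. SNRPN (chromosome 15, 24823637 to 24978723, plus strand) encodes a spliceosome protein of neural cells and lies in the Prader-Willi region. It was at 152, 137 and 157 CPM in ventral midbrain and at 159, 149 and 126 CPM in control replicates 2, 3 and 4. Its log2 fold change was 0.04 ± 0.15 (SE; edgeR adjusted p = 0.96), and its variation within groups was the smallest of the members in ventral midbrain, at 6.93% of the mean, and 11.7% in control. Of its reads 99.1% to 100% were given to SNRPN-202, while SNURF, read from the same messenger RNA, was given 6.0 to 24.6 reads a library. SNHG14, the noncoding RNA that runs on from SNRPN, was at 217, 359 and 242 CPM in ventral midbrain and at 185, 296 and 190 CPM in control (edgeR adjusted p = 0.74), with 1.266 times as much signal in the deposited table as in the present sum. Also in this region NDN, a growth suppressor of neurons, was at 195, 161 and 207 CPM in ventral midbrain and at 199, 175 and 165 CPM in control (edgeR adjusted p = 0.94). UBE3A, a ubiquitin ligase that neurons read from the maternal copy alone, was at 172, 178 and 159 CPM in ventral midbrain and 190, 193 and 208 CPM in control (edgeR adjusted p = 0.62).

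PLAGL1 (chromosome 6, 143940300 to 144064599, minus strand), a zinc finger transcription factor that in mouse controls other imprinted genes, was at 37.4, 24.9 and 55.9 CPM in ventral midbrain and at 37.7, 34.1 and 63.4 CPM in control replicates 2, 3 and 4. Replicate 4 was the highest and replicate 3 the lowest of each group. The log2 fold change was -0.19 ± 0.33 (SE; edgeR adjusted p = 0.91 unblocked and 0.47 blocked by number). The transcript PLAGL1-226, whose start is that of the promoter printed above, took 67.6% to 91.6% of the reads. PLAGL1-205, which starts elsewhere, at 143968838, ends at 143940302, beside the end of PLAGL1-226 at 143940300. Reads of 3' ends therefore cannot tell these starts apart. HYMAI, a noncoding RNA of the same promoter region, was at 0.715, 3.76 and 4.51 CPM in ventral midbrain and at 1.54, 5.56 and 4.39 CPM in control (edgeR adjusted p = 0.92).

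PEG3 (chromosome 19, 56810077 to 56840728, minus strand), a zinc finger gene expressed widely in brain, was the only member not detected in either group beyond a single read. None of its 18 transcripts had a read in any ventral midbrain library, and 1 read fell in control replicate 2. A count of 0 allows up to 3 reads, or 0.195 to 0.257 CPM depending on the library. ZIM2, which shares the first exons of PEG3, and USP29, on the other side, had no read in any library, and ZIM3 had at most 0.378 CPM. A comparison between groups was not possible at this depth.

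A longer list of 73 other genes reported as imprinted, some in certain tissues only, held 47 that could be tested. Of these CPA4 fell and LPAR6 rose past edgeR's test, where 1.09% and 1.06% of all genes were lower and higher. LPAR6, a receptor gene that lies within RB1 on the opposite strand, was at 6.70, 7.37 and 7.09 CPM in ventral midbrain and at 2.12, 1.63 and 0.454 CPM in control replicates 2, 3 and 4 (log2 fold change 2.32 ± 0.51 SE; edgeR adjusted p = 0.047). Its call was lost with any 1 of the 6 libraries left out (highest adjusted p = 0.13) and with a gene-length offset (adjusted p = 0.47). The median log2 fold change of the 47 was 0.10 against 0.01 over all genes, with 29 positive and 18 negative, and the groups did not overlap in 7 (14.9%, against 17.9% of all genes). With the replicate block 4 of the 47 passed (CPA4, LPAR6, PON2 and DIRAS3), a share of 8.51% that is near the 8.13% of all genes. DIRAS3, a small GTPase of the paternal copy named after its values were seen, was at 183, 51.4 and 61.4 CPM in ventral midbrain and at 70.2, 19.9 and 22.1 CPM in control replicates 2, 3 and 4. It varied more between numbers than between groups, with pair differences of 1.38, 1.37 and 1.48 on the log2 scale (edgeR adjusted p = 0.62 unblocked and 1.1e-05 blocked by number). The 3 most abundant genes of the list, CD81, DIO3 and GNAS, did not pass. CD81, a tetraspanin, was at 470 to 649 CPM in ventral midbrain and 503 to 878 CPM in control, and GNAS, a G protein subunit, at 425 to 554 CPM and 352 to 483 CPM (edgeR adjusted p = 0.64 and 0.88).

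Genes known to set, keep or erase imprints did not pass the test. Of 26 such genes, 19 were tested. The unblocked edgeR test called 0, TET1 alone had an unadjusted p under 0.05 (5.26% of the 19, beside 12% of all genes), and neither DESeq2 nor voom called any (0 each, beside 4.69% and 1.64% of all genes). Blocked by number, 2 of the 19 passed, or 10.53%, beside 8.13% of all genes. TRIM28, the corepressor that ZFP57 recruits, was at 154, 136 and 131 CPM in ventral midbrain and at 149, 148 and 114 CPM in control (edgeR adjusted p = 0.97). DNMT1, the maintenance DNA methyltransferase, was at 103, 182 and 91.6 CPM in ventral midbrain and at 90.9, 172 and 113 CPM in control (edgeR adjusted p = 0.999), with the libraries numbered 3, where cycling markers were high, at the top of each group. ATRX, a chromatin remodeller, was at 426 to 682 CPM and 386 to 501 CPM, and CBX3, a heterochromatin protein, at 478 to 611 CPM and 519 to 551 CPM in ventral midbrain and control. With the block TET1, which oxidises methylated cytosine, passed at 35.0, 43.4 and 36.0 CPM in ventral midbrain and 28.1, 24.2 and 22.3 CPM in control (edgeR adjusted p = 0.14 unblocked and 0.031 blocked by number). HELLS, a chromatin remodeller of dividing cells, also passed with the block, at 51.0, 133 and 46.3 CPM in ventral midbrain and 35.4, 113 and 27.5 CPM in control (edgeR adjusted p = 0.92 unblocked and 0.035 blocked by number). No read was assigned to ZFP57, DNMT3L, DPPA3 or NLRP7, and ZNF445, a second protein that protects imprints in human and mouse, was at 29.6 to 32.4 CPM in ventral midbrain and 25.97 to 32.1 CPM in control.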

How the data were processed

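Polyadenylated RNA of 6 libraries, 3 ventral midbrain and 3 control, was read as 3' end libraries, per the labels. Salmon (version not stated), DESeq2 1.27.12 and GRCh38.p13 are named for the authors' work, per the submitters' processing notes. Each deposited library file gives estimated counts, TPM and effective lengths per transcript, and a deposited table of normalized gene signal. Here estimated counts were summed per gene with GENCODE release 29 (GRCh38), which matched 90.6% of transcripts, and unmatched ones held 0.992% to 1.12% of a library's reads. For the 9 tested members the sum and the deposited signal agreed in geometric mean, and for MEG8, SNHG14, EED and UHRF1 they did not. UHRF1 and EED values are therefore not given. Sums were rounded, filtered with filterByExpr, scaled by TMM and tested with edgeR 4.0.16 under R 4.3.3 (robust quasi-likelihood), with Benjamini-Hochberg adjustment over 15984 genes. The common biological coefficient of variation was 0.309. SE is the absolute log2 fold change over the square root of F. No length term was used because 3' end reads do not scale with length. DESeq2 1.42.0 and limma 3.58.1 were alternatives. The labels do not say that libraries are separate cultures, so p-values measure the spread between these samples, which may be technical. Salmon divides reads between overlapping genes, and the sources used here do not say if strand was used.

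Same-numbered libraries deviated from their group means together, at correlations of 0.277, 0.409 and 0.250, all above the 0.1 set for a pairing, while differently numbered pairs across groups reached 0.034 at most. The pairing comes from the data alone, since no label says what a number shares. These correlations depend on each other within groups of 3. The main test has no block. On data simulated for this comparison with 15488 genes tested, 36 of 100 genes simulated at 2-fold were called, as were 86 of 100 at 4-fold, with 15 of 137 calls false. Members and lists were chosen with earlier results of these data known. The genes named are the 10 members, list genes past the test, partners in a cluster and the 3 highest of each list, with those outside the rule named as chosen after their values were seen: the other genes of 7q21, RTL1, KCNQ1OT1, NDN, UBE3A, USP29, ZIM3, MEG8, MEG9, DIRAS3, DNMT1, TET1, HELLS, ZNF445, PHLDA2, SLC22A18AS, markers beyond 2 a list and the maintenance genes without reads. PWAR6, PWARSN and PEG3-AS1 had no match in the annotation. Counts of 0 allow 3 reads, for counting error only. Figures were drawn with matplotlib 3.10.9.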

Additional observations from a re-analysis of the deposited data

How the results depend on the processing

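The count of 0 members past edgeR's test was the same under RLE and upper-quartile scaling, a filter of 2 CPM in 3 libraries, limma voom, a gene-length offset, protein-coding genes alone, overlapping genes summed, the deposited normalized values and an adjusted p under 0.01. It was 2 with no low-count filter, 2 with DESeq2 and 5 with the replicate block, and 0 to 1 with 1 library left out. The alternative without both libraries numbered 3, chosen after seeing the data, gave 0.

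The count of 2 in the longer imprinted list became 4 with no filter, 3 with DESeq2, with the 2 CPM filter and with protein-coding genes alone (PON2 being the added gene in all 3), 0 with voom, 1 with the length offset, 4 with the replicate block, 1 with the deposited values and 0 at an adjusted p under 0.01. It was 0 to 1 with 1 library left out, and 1 without both libraries numbered 3. For the imprint maintenance genes the block gave 2 in place of 0. Over all genes 344 became 1012 with no filter, 750 with DESeq2, 173 with the length offset, 1300 with the block, 180 with the deposited values, 102 at an adjusted p under 0.01 and 131 to 258 with 1 library left out. The cause was not tested.

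Among the named imprinted and maintenance genes, the block changed no call other than those given with both values. Fold changes reversed for MEG3 with the length offset (0.20), SNRPN without control replicate 4 (-0.055) and PLAGL1 without ventral midbrain replicate 3 (0.05) or control replicate 4 (0.13). With libraries left out, SNRPN ranged from -0.055 to 0.12 and PLAGL1 from -0.53 to 0.13. As a share of TPM in place of reads, MEG3-220 was 9.49% in ventral midbrain and 20.6% in control, against 44.2% and 63.9% of reads, since TPM divides by length. MEG3, at 19 to 69 reads a library, and PEG3 are limited by depth.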
